A study of Mus musculus with 2 samples.

Results

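The replication-dependent histone genes supply the core histones H2A, H2B, H3 and H4 and the linker histone H1 that package DNA as it is copied. The genes described here are the protein-coding genes of the GENCODE M21 annotation (mouse build GRCm38, also called mm10) whose symbols begin with Hist1h, Hist2h, Hist3h or Hist4h. The rule found 67 of 21853 protein-coding genes: 6 H1, 18 H2A, 18 H2B, 12 H3 and 13 H4 genes. A gene was counted as having a promoter region when an accessible region lay within 1 kb of any of its annotated starts, and the rule that picks the members reads gene symbols and no measured value.

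Open chromatin was mapped in G1E-ER4 cells by ATAC-seq, where a transposase cuts accessible DNA and leaves adapters for sequencing. These mouse erythroid progenitor cells lack their own Gata1 and carry the transcription factor GATA1 fused to the ligand-binding part of the estrogen receptor, so that estradiol switches GATA1 on and the cells mature. Both libraries came from 50000 cells given 10 nM 17beta-estradiol for 24 h, under labels of strain C57BL/6J and male sex. The libraries are labelled biological replicates 1 and 2 of 1 group, the labels do not say whether they came from separate cultures, and no untreated cells are among the samples, so no effect of estradiol can be read from these values.

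Replication-dependent histone genes are transcribed mainly in S phase, lack introns in most cases, and give mRNAs that end in a stem-loop in place of a poly(A) tail. Most lie in a few dense clusters, where H2A and H2B genes often stand head to head and share the DNA between their starts. NPAT, phosphorylated by cyclin E and CDK2, activates the clusters in S phase, while each family also has promoter elements of its own: CCAAT boxes bound by NF-Y, an octamer bound by OCT1 at H2B genes, an AAACACA element at H1 genes, and a site bound by HINFP at H4 genes.

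The sequences below were chosen because they carry the family differences described afterwards. All are from GRCm38 and read 5′ to 3′, and capitals mark matches on either strand of CCAAT, of the TATA box TATAAA, of the octamer ATGCAAAT, of the H1 element AAACACA and of the H4 element GGTCCG. A match on the other strand appears as the reverse complement, so that CCAAT there reads ATTGG. The first 3 lie between the starts of head-to-head H2A and H2B genes, on the plus strand. They are the pair with the strongest region (chr13:22035570-22035869), the pair with the weakest (chr3:96220881-96221118) and the pair with none (chr13:23934162-23934461).
Hist1h2ah/Hist1h2bk: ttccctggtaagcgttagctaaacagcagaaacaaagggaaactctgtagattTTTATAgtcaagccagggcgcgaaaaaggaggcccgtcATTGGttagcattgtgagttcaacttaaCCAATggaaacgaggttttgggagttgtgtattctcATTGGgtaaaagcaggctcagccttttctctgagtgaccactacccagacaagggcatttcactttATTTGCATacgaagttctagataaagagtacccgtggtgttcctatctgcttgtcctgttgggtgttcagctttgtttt
Hist2h2ac/Hist2h2be: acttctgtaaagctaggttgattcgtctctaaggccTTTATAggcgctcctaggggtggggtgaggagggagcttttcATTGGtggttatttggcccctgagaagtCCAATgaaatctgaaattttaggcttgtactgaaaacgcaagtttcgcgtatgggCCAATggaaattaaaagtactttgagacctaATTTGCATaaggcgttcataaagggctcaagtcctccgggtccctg
Hist1h2ba/Hist1h2aa: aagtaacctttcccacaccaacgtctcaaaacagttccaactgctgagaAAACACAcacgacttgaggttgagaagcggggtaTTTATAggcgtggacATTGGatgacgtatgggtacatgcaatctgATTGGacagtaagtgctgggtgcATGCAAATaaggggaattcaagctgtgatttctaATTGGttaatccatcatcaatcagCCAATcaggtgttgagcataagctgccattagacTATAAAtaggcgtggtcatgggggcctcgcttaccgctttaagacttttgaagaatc
The next 3 are the 150 bases before the starts of H4 genes: the strongest (chr13:23698455-23698604, minus strand), the weakest with a region (chr13:23530900-23531049, plus strand) and 1 without (chr13:23756863-23757012, plus strand).
Hist1h4c: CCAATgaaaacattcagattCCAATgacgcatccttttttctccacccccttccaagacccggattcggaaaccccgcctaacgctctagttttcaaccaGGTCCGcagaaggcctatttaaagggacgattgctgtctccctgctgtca
Hist1h4h: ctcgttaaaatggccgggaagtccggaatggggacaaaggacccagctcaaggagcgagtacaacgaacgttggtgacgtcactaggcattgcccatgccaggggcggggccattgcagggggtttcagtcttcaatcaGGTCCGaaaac
Hist1h4b: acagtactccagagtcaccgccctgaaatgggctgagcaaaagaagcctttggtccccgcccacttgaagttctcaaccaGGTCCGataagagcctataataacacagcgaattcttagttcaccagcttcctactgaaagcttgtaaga
The last 4 are the 150 bases before the starts of the H3 gene with the strongest region (chr13:23562370-23562519, minus strand), the H3 gene with none (chr13:21783371-21783520, minus strand), the H1 gene with the strongest region (chr13:23738658-23738807, plus strand) and the H1 gene of the testis (chr13:23695664-23695813, plus strand).
Hist1h3e: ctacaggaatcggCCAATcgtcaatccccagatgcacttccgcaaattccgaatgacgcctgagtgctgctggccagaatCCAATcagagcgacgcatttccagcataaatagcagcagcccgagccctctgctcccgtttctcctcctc
Hist1h3i: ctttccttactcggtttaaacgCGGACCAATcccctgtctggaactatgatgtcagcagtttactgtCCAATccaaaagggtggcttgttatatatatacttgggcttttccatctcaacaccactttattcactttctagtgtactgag
Hist1h1c: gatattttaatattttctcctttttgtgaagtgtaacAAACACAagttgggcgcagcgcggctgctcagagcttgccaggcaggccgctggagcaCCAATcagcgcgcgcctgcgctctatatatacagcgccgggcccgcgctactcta
Hist1h1t: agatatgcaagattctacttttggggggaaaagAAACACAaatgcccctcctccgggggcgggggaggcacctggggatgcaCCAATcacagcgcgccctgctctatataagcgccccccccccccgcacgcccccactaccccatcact

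Most histone genes had an accessible promoter, and the families differed in how strong it was. In the conservative list, the 20080 regions that passed the authors' irreproducible discovery rate (IDR) comparison of the libraries, which estimates the share of peaks whose rank does not repeat, 57 of the 67 genes (85.1%) had a promoter region, beside 42.3% of all protein-coding genes. The count was 52 in the list of library 1 and 53 in that of library 2 (52.5 ± 0.707, SD, n = 2), where 38.8% and 39.9% of all genes had one. In the looser replicated list it was 62, with 46.9% of all genes. Other settings gave 62 in an archived earlier list (54.7% of all genes), 58 in the list from pooled pseudoreplicates (42.6%), 57 with the starts of all transcripts (43.2%), 54 within 250 bp of a start (40.7%) and 33 among regions with a signal above the median of the list (32.3%). By family, a region stood at 17 of 18 H2A, 16 of 18 H2B, 11 of 12 H3, 10 of 13 H4 and 3 of 6 H1 genes.

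Where a region was present, its signal, the enrichment value that the authors gave each region, tended to be below that of other promoters. The median over the 57 genes was 10.8 (range 4.67 to 16.8), and the median over all 9244 genes with a region was 13.8. The regions were also narrower, with a median width of 431 bp at histone genes and 641 bp over all genes with a region. H2B (median 12.4) and H2A (12.3) genes had the highest signal, followed by H3 (10.3), H1 (6.94) and H4 (6.6) genes. Because these are single genes of shared ancestry and shared regions, and not replicates, the families were compared by their medians and counts without a test.

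**Figure D1:**
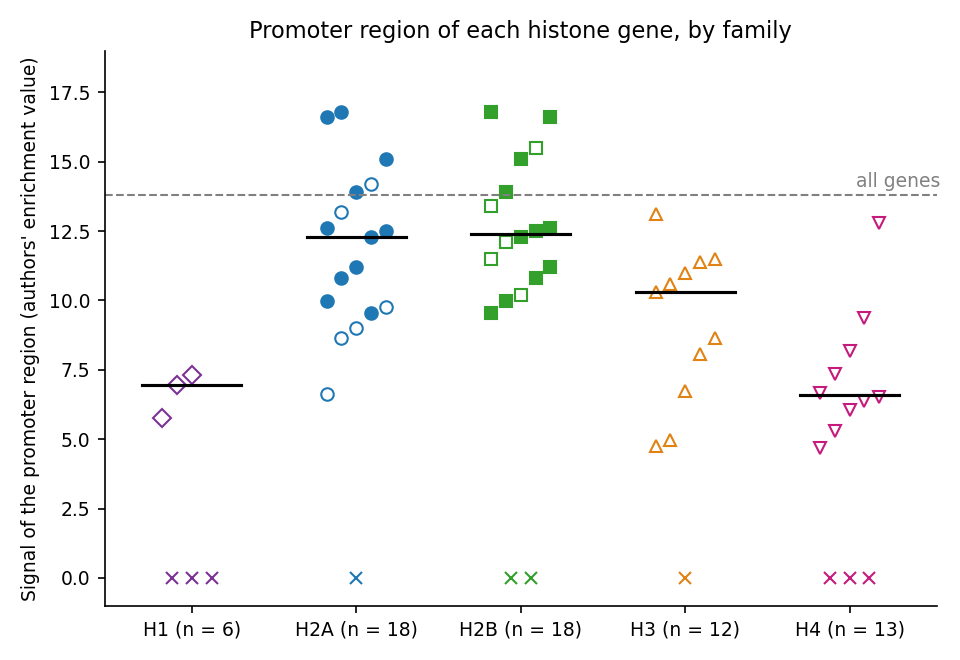
Signal of the promoter region of each histone gene (y axis, the authors' enrichment value) by family (x axis), with filled symbols for genes of a head-to-head pair that share 1 region, open symbols for other genes, crosses at 0 for genes without a region, bars for the family median and a dashed line for the median of all genes with a region. All H2B genes with a region lie at 9.55 or above, and all H4 genes but Hist1h4c (12.8) lie at 9.38 or below.

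The order of the families was alike in both libraries, with H1 and H4 below H3, and H3 below H2A and H2B; H1, with 3 genes, was below H4 in each library and above it in the conservative list. In library 1 the median signals of the genes with a peak in both libraries were 5.94 for H1, 6.22 for H4, 9.48 for H3, 10.9 for H2A and 11.2 for H2B. In library 2 they were 6.14, 6.65, 9.3, 11.2 and 11.1 in the same order. The largest SD between the 2 library medians of a family was 0.304, for H4, so H4 and H3 lay further apart than the libraries did, whereas H2A and H2B did not differ beyond that spread and changed places between libraries. Over the 42 distinct regions with a peak in both libraries, Spearman's rho between the libraries was 0.905 and Pearson's r 0.897, given as a description because neighbouring genes and near copies share sequence.

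**Figure D2:**
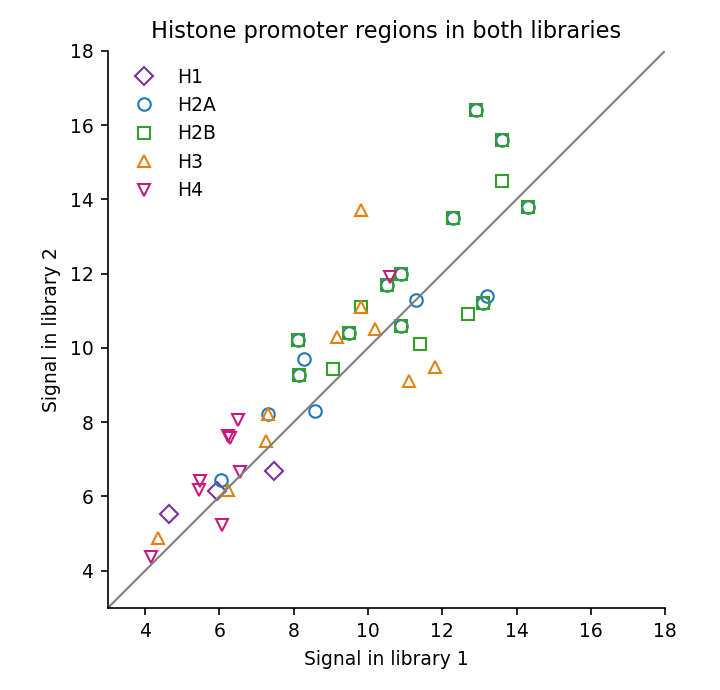
Signal of each histone promoter region in library 1 (x axis) and library 2 (y axis), 1 symbol per gene and region, with the line of equal values. An H2A and an H2B symbol on the same spot are a pair that shares a region. Hist1h3c with Hist1h2bb, and Hist1h2ab with Hist1h3b, also fall on the same spot because they share a region. H4 and H1 regions gather at the low end in both libraries, and Hist1h3e (9.82 and 13.7) lies far above the line.

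Every H2A and H2B region was also called in both libraries. The promoter region itself was called in the separate lists of both libraries for 17 of 17 H2A and 16 of 16 H2B genes, 8 of 11 H3, 6 of 10 H4 and 2 of 3 H1 genes. In all this was 49 of 57 genes (86%), beside 86.2% of all genes with a region. The 6 genes whose region was called in neither list were Hist1h3h, Hist2h3b, Hist1h4f, Hist1h4m, Hist1h4n and Hist1h1b. The region of Hist1h4h was called in library 1 alone, and that of Hist1h3a in library 2 alone.

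H2A and H2B proteins form a dimer, and their genes also came in pairs. Of 13 head-to-head pairs of histone genes with starts under 1 kb apart, 11 were an H2A and an H2B gene that shared 1 region, and together they held 22 of the 33 H2A and H2B genes with a region. The starts in these pairs lay 175 to 301 bases apart (median 269). In 11 of 11 pairs the region covered both starts and its summit, the point of highest signal, lay between them, at a median of 22.5 bp from the midpoint. A region of this kind therefore counts for both genes, and its signal cannot be divided between them.

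Hist1h2ah and Hist1h2bk, the first pair printed above, had the strongest region of all members, chr13:22035505-22035955, with a signal of 16.8 and a −log10 p of 113. The libraries gave 13.6 and 15.6 there. Hist1h2ac and Hist1h2bc followed at 16.6 (libraries 12.9 and 16.4), and Hist1h2bq and Hist1h2ao at 15.1 (14.3 and 13.8). The weakest shared region was that of Hist2h2ac and Hist2h2be at 9.55 (8.15 and 9.26), and Hist1h2ae and Hist1h2bg were next at 9.98 (8.12 and 10.2). Each library gave higher values at the 3 strongest pairs than at the 2 weakest. The pairs were ranked by the list made from both libraries, so this is not independent support for the ranking.

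Outside such pairs, H2B genes had a median signal of 12.1 (5 genes) and H2A genes one of 9.39 (6 genes). Together these 11 genes had a median of 11.5 (range 6.63 to 15.5), and the 11 shared regions had one of 12.5 (9.55 to 16.8). Hist1h2bh, an H2B gene that faces the H3 gene Hist1h3f across 659 bases, had a region of its own at 15.5 (13.6 and 14.5). Hist1h2af had the lowest value of the H2A genes, 6.63 (6.04 and 6.43). Hist1h2ab was next at 8.63, but the summit of that region lies 1142 bp past its start, at the start of Hist1h3b. Hist3h2a, the H2A gene of the Hist3 cluster, had a signal of 14.2 (13.2 and 11.4), while its neighbour Hist3h2ba had no peak within 1 kb in any list.

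One pair had no detected region. Hist1h2ba and Hist1h2aa, which encode the H2B and H2A forms of the testis, start 305 bases apart, and no list held a peak within 1 kb of either. Their shared DNA, printed above, held 4 CCAAT boxes and 1 octamer, beside 3 and 1 in the strongest pair.

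Histone H3, which pairs with H4 in the core of the nucleosome, had intermediate values with a wide spread. Hist1h3e was the strongest H3 gene at 13.1, although library 1 gave 9.82 and library 2 gave 13.7. The regions counted for the next 2 did not cover the gene's own start. That of Hist1h3c (11.5; libraries 9.8 and 11.1) had its summit 993 bp upstream, at Hist1h2bb, and that of Hist1h3f (11.4; 10.2 and 10.5) had its summit 332 bp into the gene. At the low end stood Hist1h3h with 4.76, where library 1 had no peak and library 2 gave 4.64, and Hist1h3a with 4.96 (4.35 and 4.89). Hist2h3b had 8.07 (7.26 and 7.49); this region was called in neither library's list, although both lists counted the gene through another region within 1 kb. Hist1h3i was the H3 gene without a region: its peak had a signal of 3.77 and a global IDR of 0.0834, above the limit of 0.05.

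H4 genes had the weakest regions of the core histones. Hist1h4c was the exception at 12.8 (libraries 10.6 and 11.9). Hist2h4 followed at 9.38 (6.22 and 7.64) and Hist1h4d at 8.19 (6.49 and 8.06). The lowest were Hist1h4h at 4.67 (4.17 and 4.37) and Hist1h4m at 5.31, where library 1 had no peak and library 2 gave 5.1. Hist1h4n (6.07) and Hist1h4f (6.66), called in neither library's list, and Hist4h4 (6.53; 6.55 and 6.65), the single gene of the Hist4 locus on chromosome 6, lay close to the family median.

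All 13 H4 genes had a peak in the looser replicated list, including the 3 whose peak missed the reproducibility limit. Hist1h4j had a signal of 7.03 with a global IDR of 0.105, Hist1h4i 4.25 with 0.178, and Hist1h4b 3.59 with 0.178. Hist1h4b had no peak in library 1 and one of 3.1 in library 2. On the other side of the limit, Hist1h4m had a global IDR of 0.0428 and Hist1h3h of 0.024. Hist1h4j had a higher signal than 6 of the 10 H4 genes that passed, so for H4 the count of 10 depends on how alike the libraries ranked weak peaks.

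H1 binds the linker DNA between nucleosomes. Hist1h1c (7.33; libraries 7.46 and 6.69) and Hist1h1e (6.94; 5.94 and 6.14) had a region over the start. Hist1h1b had a region of 5.76 (4.64 and 5.54), called in neither library's list, that did not reach its start; it covered the end of the gene, with its summit past the stop codon. Hist1h1a had a peak of 5.04 with a global IDR of 0.198 and was counted in library 2's list but not in library 1's (signals 5.56 and 3.71). Hist1h1t, the H1 gene of the testis, had no peak within 1 kb in any list.

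The remaining H1 gene, Hist1h1d, had no peak within 1 kb of its annotated start in any list. GENCODE places that start 1828 bp before the start codon, whereas the RefSeq promoter table gives one 1770 bp further along. A region at chr13:23554890-23555321, with a signal of 7.5 (7.32 and 6.81), lay at the start codon and was called in library 1's list but not in library 2's. The H2B gene Hist1h2be has a start codon 35168 bp from its annotated start; a region of 9.28 (7.62 and 9.03) lay at the codon, and another of 10.2 (9.06 and 9.44) at the annotated start. With the window placed on the start codon, 58 of 67 histone genes had a region, 4 of them H1 genes, beside 29.3% of all genes.

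The median summit lay further upstream at H2A and H2B genes than at the other families. Its median position relative to the start, negative upstream, was -110 bp at H2A and -116 bp at H2B genes, against -61 bp at H3, -34.5 bp at H4 and 5 bp at H1 genes. The median over all genes with a region was -37 bp. Of the 33 H2A and H2B genes with a region, 22 share one with a partner. Its summit lies between the 2 starts, near their midpoint, and counts for both genes. Within 200 bp upstream of the start lay the summits of 49 of the 57 histone genes (86%) and of 71.9% of all genes with a region.

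**Figure D3:**
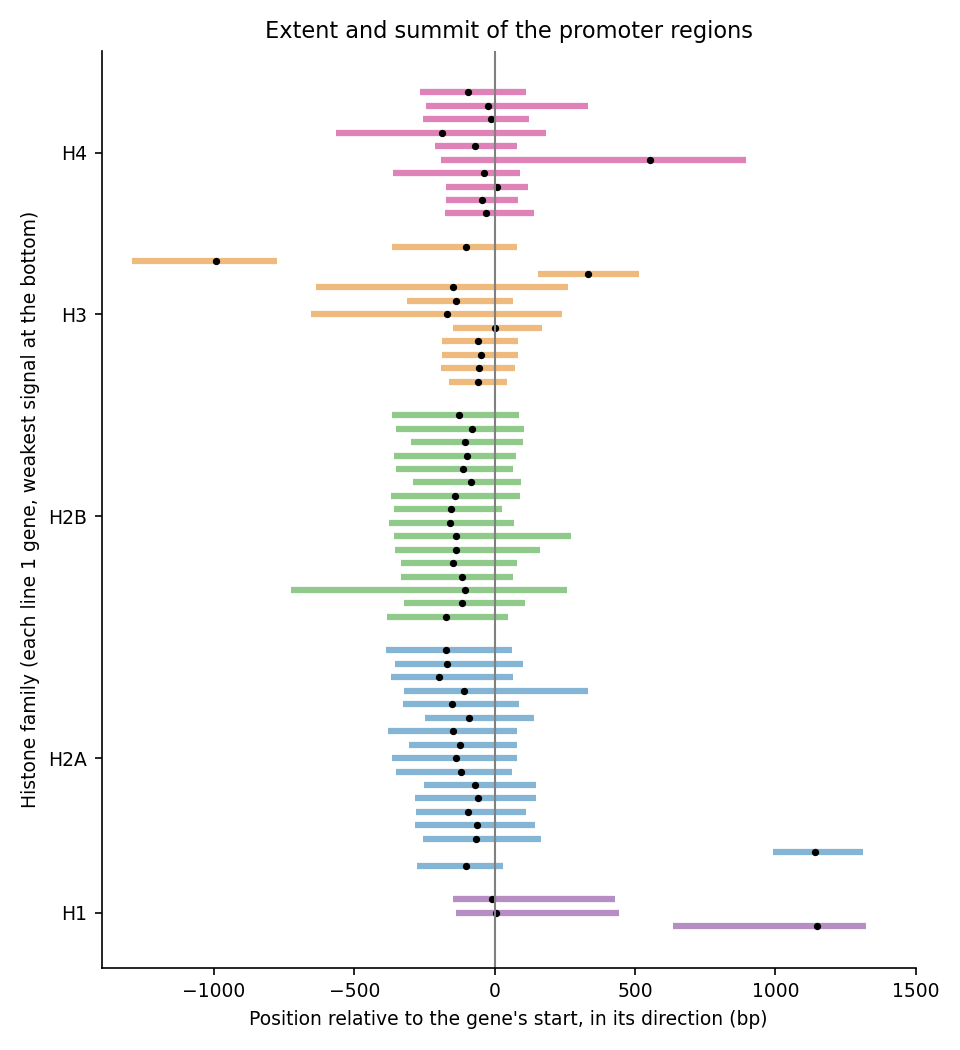
Extent (coloured lines) and strongest summit (black points) of the promoter region of each histone gene, relative to its annotated start and in its direction (x axis, bp), grouped by family and ordered by signal (y axis). H2B regions cover the start with summits upstream of it, whereas Hist1h3c, Hist1h3f, Hist1h2ab and Hist1h1b have regions that do not reach their starts.

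A further set of regions lay past the ends of histone genes. Within 1 kb past the stop codon, a window chosen after these values were seen, a summit was found for 20 of 67 histone genes (29.9%), beside 1.96% of all genes. In dense clusters many of these are the promoters of the next gene, and 6 histone genes (8.96%), beside 1.14% of all genes, had one more than 250 bp from every annotated start and start codon of a protein-coding gene. Regions of this kind stood past the linker genes Hist1h1c (8.75; libraries 9.32 and 7.52), Hist1h1d (7.78; 6.67 and 7.69) and Hist1h1b (5.76). The others stood past the H4 genes Hist2h4 (11.6; 9.96 and 10.1), Hist1h4h (7.93; 7.48 and 7.28) and Hist1h4m (5.25; 5.1 and 4.78). At Hist2h4, Hist1h4h and Hist1h1c the signal past the stop codon was higher than that at the start in both libraries.

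By position, the genes fell into 5 groups when neighbours more than 500 kb apart were separated. The Hist2 group on chromosome 3 spans 50.27 kb and had a region at 10 of 10 genes, with signals between 8.07 and 13.2. The region of 13.2, at Hist2h2ab, also lay within 250 bp of a start of Bola1, which is not a histone gene. The Hist1 genes lie on chromosome 13 in 2 stretches of 327.9 kb and 403.8 kb, where 20 of 23 and 25 of 31 genes had a region, with median signals of 12.5 and 9.98. Of the near copies described below, the first stretch holds Hist1h2bq, Hist1h2ao, Hist1h2ap, Hist1h2br, Hist1h4m and Hist1h4n, and 16 of its 23 genes were counted in each library's list. Hist3 had 1 of 2 and Hist4 1 of 1.

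Of 9 genes of other kinds between the histone genes, 3 (33.3%) had a promoter region, near the 42.3% of all genes. The 3 with a region were Slc17a4 (11.8), Prss16 (8.59) and Zfp184 (8.44). Hfe, the hemochromatosis gene, and Trim38, Pom121l2, Slc17a1, Slc17a2 and Slc17a3 had none.

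**Figure D4:**
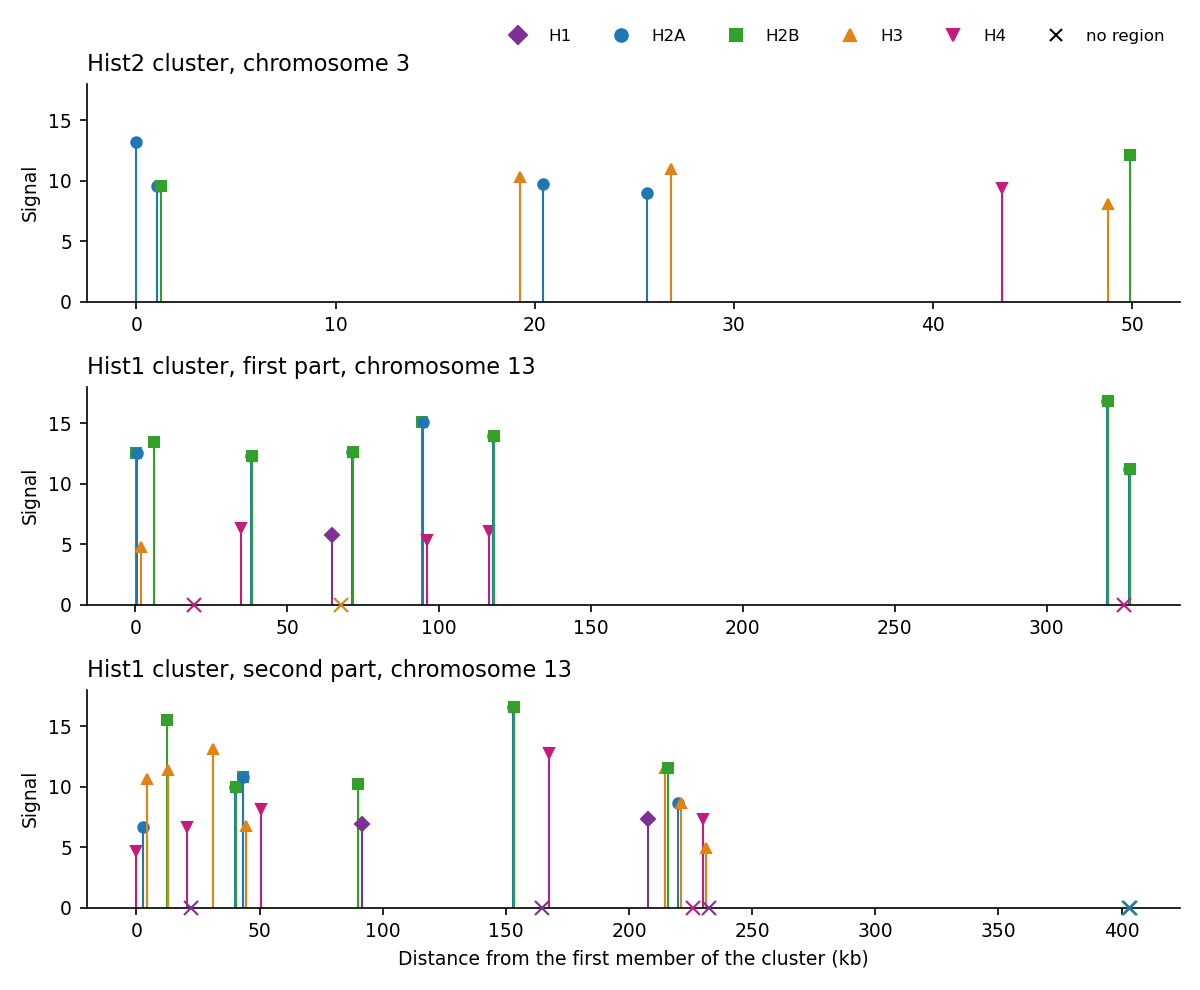
Signal of the promoter region (y axis, the authors' enrichment value) of each gene of the Hist2 group and the 2 Hist1 stretches, by the distance of its start from the first gene (x axis, kb), with crosses for genes without a region. H2A and H2B genes reach 16.8 and 16.6 in the 2 Hist1 stretches beside H4, H3 and H1 genes without a region, and the last 2 crosses on the right of the lowest panel are the testis pair Hist1h2ba and Hist1h2aa.

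Promoter sequence also separated the families. Motifs were searched on both strands from 250 bp before to 50 bp after the start of each gene, and the windows of head-to-head genes overlap, so that 1 match can count for both. CCAAT occurred in 56 of 67 histone promoters (83.6%), beside 37.7% of all promoters. All 36 H2A and H2B promoters held 2 or more, as did 11.9% of all promoters, whereas CCAAT was found in 4 of 13 H4 promoters. TATAAA was present in 37 of 67 (55.2%; all promoters 13.3%).

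Other elements were spread unevenly over the families. The octamer ATGCAAAT was found in 7 H2A and 8 H2B promoters and in no other member, beside 1.69% of all promoters. TTTCGCGC or TTTGGCGC, E2F-type sites, occurred in 9 H2A and H2B promoters and in no other member (all promoters 1%). GGTCCG, the core of the H4 element, stood in 12 of 13 H4 promoters and in 3 other members (all promoters 10.3%), Hist1h4a being the H4 gene without. AAACACA stood in 4 of 6 H1 promoters and in 5 other members (all promoters 6.41%). At the RefSeq start of Hist1h1d, in place of the GENCODE one, there was 1 match to AAACACA and 1 to CCAAT.

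Of sites common at other promoters, GGGCGG was present in 10 of 13 H4 but in 2 of 12 H3 promoters (all promoters 44.8%). The ETS word CCGGAAGT (all promoters 4.9%) and the NRF1 palindrome (1.14%) were in none of the 67. AGATAA or TGATAA, words that GATA factors bind, occurred in 14 of 67 (20.9%), beside 16.7% of all promoters. Such a match describes letters and not binding.

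**Figure D5:**
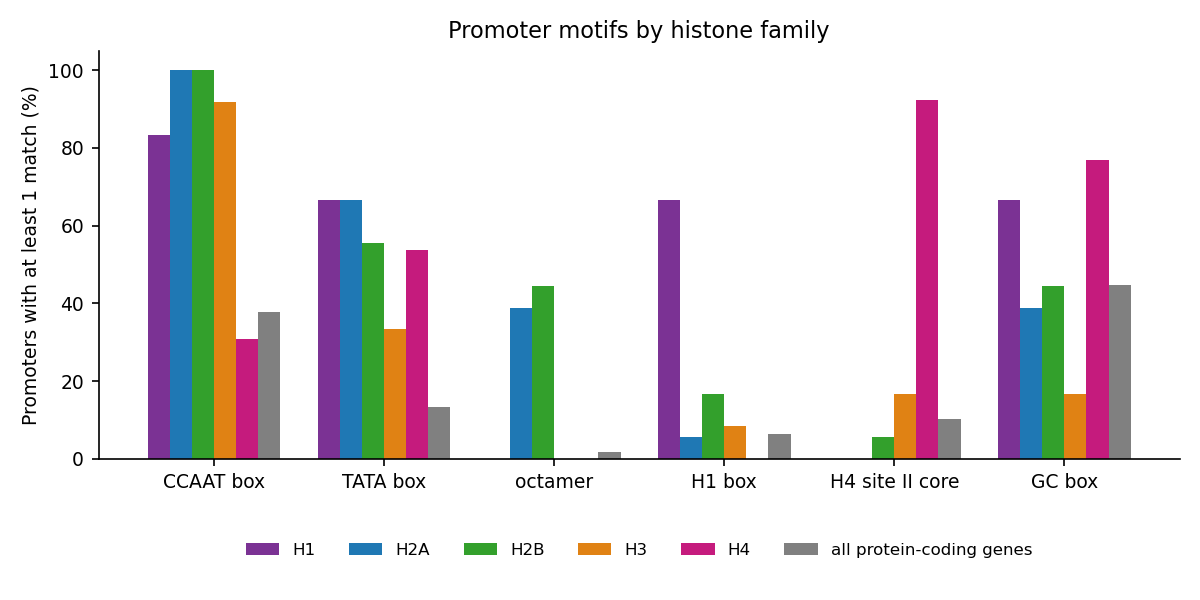
Share of promoters with at least 1 match (y axis, %) for 6 motifs (x axis) in each histone family and over all protein-coding genes (grey). CCAAT reaches 100% in H2A and H2B, the octamer is found in H2A and H2B alone, and the H4 site II core (GGTCCG) reaches 92.3% in H4.

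Median signal was higher in groups of promoters with more CCAAT boxes, counting only genes with a region. Among the 57 genes with a region, the median signal was 6.36 for the 7 without CCAAT, 8.19 for the 7 with 1, 9.02 for the 13 with 2 and 12.5 for the 30 with 3 or more. In this last group signals ranged from 5.76 to 16.8. Its genes with 5 boxes, Hist1h2ag and Hist1h2bj (11.2) and Hist1h3c (11.5), lay below its median. The 10 genes without a region are not in these medians. Of these, 6 held CCAAT, and Hist3h2ba, Hist1h2ba and Hist1h2aa held 4 boxes each. The values behind these medians are not separate. Of the regions, 13 each stand for 2 genes, 11 of them in head-to-head pairs, so each such signal enters for both genes. Hist1h3c, with 5 boxes, enters with the region at Hist1h2bb, and Hist1h2ab, with 2, with the region at Hist1h3b. Family and CCAAT count move together, since every H2A and H2B gene had at least 2, and their parts cannot be told apart over all genes. Within H4, the 4 genes with CCAAT (Hist1h4c, Hist2h4, Hist1h4d and Hist1h4a) had signals of 7.36 to 12.8, and the 9 without it had signals of 4.67 to 6.66 in 6 genes and no region in 3. In library 2 the lowest gene with CCAAT, Hist1h4a (7.56), lay above the highest without it, Hist4h4 (6.65). In library 1 the groups overlapped, since Hist2h4 (6.22), Hist1h4a (6.28) and Hist1h4d (6.49) lay below Hist4h4 (6.55). In the list made from both libraries, the strongest summit of the Hist4h4 region lay 552 bp past its start, outside the bases searched for motifs. Another summit lay 45 bp from that start. After Hist4h4, the highest gene in library 1 with a region and no CCAAT was Hist1h4n (6.08). Hist1h4j, without CCAAT or a region, had a library 1 peak of 6.27. The H4 sequences printed above show this contrast: Hist1h4c has 2 CCAAT boxes besides GGTCCG, and Hist1h4h and Hist1h4b have GGTCCG alone. The pattern was not shared by every gene. Hist1h3h (4.76) and Hist1h3a (4.96), with 2 boxes each and a region over the start, lay below the median of the genes without CCAAT. The H3 gene without CCAAT, Hist1h3f, had a signal of 11.4, above the median of 9.46 for the 10 H3 genes with CCAAT and a region. Hist1h1b, with 3 boxes, had the weakest H1 region (5.76). The regions counted for Hist1h3f, Hist1h1b, Hist1h3c and Hist1h2ab lie outside the bases searched for motifs. These genes therefore do not bear on the relation, although all of them are counted in the medians by number of boxes. The relation was seen in these same values and was not tested.

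Base composition set the histone promoters apart as well. Their median GC content was 45.7%, beside 55.7% for all promoters. The median ratio of observed to expected CpG was 0.75, beside 0.545. Among members it was 0.792 for genes with a region and 0.589 for the 10 without. Those 10 include Hist1h1d, with a ratio of 0 at its GENCODE start and 0.649 at its RefSeq start.

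Some values are shared between near copies. Of the 50-base words within 500 bp of each start, a median of 29.3% occurred elsewhere in the genome, and 100% did at Hist1h2bq, Hist1h2ao, Hist1h2ap and Hist1h2br. The share was 94.2% and 95.2% at Hist1h4m and Hist1h4n, and 94.7% at both Hist2h3c1 and Hist2h3c2. The labels and file lists do not say how reads were divided between such copies, so these signals are uncertain gene by gene. The genes without a region had a median of 13.9% and at most 33.3%.

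The genes that make and handle histones were accessible almost throughout. Of 39 genes for histone transcription, mRNA 3′ end processing and histone chaperones, 38 (97.4%) had a promoter region, beside 42.3% of all genes, with a median signal of 15, beside 13.8 over all genes with a region. The strongest were Hat1 (23.1), a histone acetyltransferase, Hinfp (21.7), whose product binds H4 promoters, Lsm10 (21.4), a part of the U7 particle that cleaves histone mRNA, and Nap1l4 (21.2), a chaperone. Npat had 19.2 and Slbp, which binds the stem-loop, 13.5. Ncbp1, of the cap-binding complex, was the one without, with a peak in the replicated list. Through any region within 1 kb, the own lists of libraries 1 and 2 counted 37 and 38 of the 39, where 38.8% and 39.9% of all genes had one. The region of Eri1 (5.41) was itself called in neither of these lists, and that of Srrt (9.33) in library 2's alone.

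Histone genes outside the symbol rule, listed for comparison as replacement histones, were a mixed set. A region stood at 9 of 14 annotated genes (64.3%), beside 42.3% of all genes. The own lists of libraries 1 and 2 counted 8 and 7, where 38.8% and 39.9% of all genes had a region. The strongest were H2afx (19.4), H3f3b (17.5), H2afv (17.4) and Cenpa (16.6), the centromeric H3. H1f0, H1fx, H1fnt, H2afy2 and H2afb1 had none.

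As a check of the label, 9 of 10 erythroid markers had a promoter region, beside 42.3% of all genes. Alas2 was the exception, with a peak in the replicated list. The own lists of libraries 1 and 2 counted 6 and 8 of the 10, where 38.8% and 39.9% of all genes had a region. Among the 9 was Gata1 (7.02), although these cells lack their own Gata1. Of 6 markers of other blood cells, Spi1 (8.79) and Rag1 (7.89) had one (33.3%), near the share of all genes. None of 6 markers of other tissues did.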

How the data were processed

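ATAC-seq peak lists from 2 libraries of 1 group were analysed; reads, alignments and depth were not used here. Per the deposited file list, the authors called peaks on each library and on the pooled libraries and compared the 2 libraries, or random parts of one (pseudoreplicates), by IDR; no label or file header names the caller, the aligner or their versions. The deposited values are a signal (enrichment, scaling not given) and a −log10 p per peak; the global IDR was computed from the deposited score, its −log10. The conservative list holds 20080 regions, the lists of library 1 and library 2 hold 14012 and 15564, and the replicated list holds 46345. The number of regions stands in for depth here.

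Overlapping peaks of a list were merged, the strongest giving the signal, and a gene was called when a region reached within 1 kb of any start of its protein-coding transcripts; with several, the one with the nearest summit gave its values. The calling code was tested on simulated peaks. Motifs and 50-base words were read from GRCm38, and starts were compared with the RefSeq promoter table (62 of 67 genes had one). Python 3.11.15, numpy 2.4.6, scipy 1.17.1 and matplotlib 3.10.9 were used.

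Named are the genes without a region, the 3 strongest and 2 weakest per family, those called in 1 library or neither, the strongest pair, all Hist3 and Hist4 genes and, in other lists, the 4 strongest and those without a region; other genes were named after their values were seen. The rule for the members reads only gene symbols, but this set of genes and the lists were chosen with earlier results of these data known. No test was made, since there is 1 group. Alternatives were other lists, each library alone, the 250 bp window, summits, all transcripts, signal above the median of all regions and, chosen after seeing the data, the start codon.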

Additional observations from a re-analysis of the deposited data

How the results depend on the processing

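Of 116 alternative values computed, 104 lay within 1.5 times the main count or within the spread of the libraries, and 12 did not. Most of the 12 came from keeping only regions with a signal above the median of all regions. Under that limit 33 member genes had a promoter region, with 0 H1, 5 H3 and 2 H4 genes, 25 Hist1 genes, 1 gene of Hist3 and Hist4 together and 5 replacement histones, over 20 distinct regions with a median signal of 12.7; the limit removes weak regions by construction. The median signal of the 49 distinct regions within 1 kb of member starts was 9.76, and it was 8 in the replicated list, 10.2 with a 250 bp window and 9.64 to 10.1 with 1 library left out, against an SD of 0.316 between libraries. The labels do not state whether signals of different lists share a scale. No paired analysis was possible because both libraries belong to 1 group. The values rest on 2 libraries and on called regions, so a gene without a region was not detected at this depth, and the count of H4 genes ranged from 7 in each library's list to 13 in the replicated list.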
